A study of Mus musculus with 2 samples.

Results

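The keratin genes were taken as the protein-coding mouse genes on GRCm38 whose symbol is Krt followed by digits alone. Of 21770 protein-coding genes placed on chromosomes, 49 met this. They lay in 2 clusters, with 25 genes on chromosome 11 and 24 on chromosome 15. The symbols Krt6a, Krt6b, Krt33a and Krt33b end in a letter and did not match, and Krt74 was left out as a transcribed pseudogene. Among the members, 5 belong to simple epithelia such as the gut lining (Krt7, Krt8, Krt18, Krt19 and Krt20), and the other 44 were compared with them as the skin and hair keratins of the clusters. That second group holds every remaining member, also Krt222 and Krt88, for which no role was assigned.

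Histone H3 trimethylated at lysine 9 (H3K9me3), which is found in silenced chromatin, was mapped by ChIP-seq, the sequencing of DNA pulled down with an antibody. Intestinal stem cells with high GFP and low CD24 were sorted, and the cells of 12 mice were used. The animals, written Lgr5-EGFP-IRES-creERT2;setdb1fl/fl in the labels, were C57BL/6 and 8 weeks old. The Lgr5 locus drives GFP and the inducible Cre recombinase in crypt stem cells, and Setdb1, which encodes an H3K9 methyltransferase, carries floxed alleles in both groups. No treatment that would induce Cre is given. The H3K9me3 group is 1 library, and the control group is 1 library from the same kind of cells, called input in its title and IgG in its antibody label. There was no replicate, so no difference was tested between samples, and the sort could not be checked by expression levels.

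Keratins are the intermediate filament proteins of epithelial cells. An acidic type I keratin pairs with a basic type II keratin to form the filament, and each kind of epithelium uses its own pairs. In mice the type I genes lie together on chromosome 11, and the type II genes on chromosome 15, where the type I gene Krt18 sits at the end of the type II cluster next to Krt8. Krt8 pairs with Krt18, Krt19 and Krt20 in the gut, whereas most other members serve the epidermis, the oral mucosa, the hair follicle, hair or nails.

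The authors' list held 39972 peaks on chromosomes 1 to 19, X and Y, of which the median peak rested on 16.5 ChIP tags. A tag is a mapped read, counted here in steps of 0.5. Tag intervals below are Poisson intervals at 95%, by a formula that is exact for whole counts and approximate for values ending in 0.5. Those of shares are exact Clopper-Pearson intervals, and both cover counting error alone. In a mixed preparation of chromatin, the share of cells that carry the mark and its level per cell cannot be told apart.

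A peak was called at 19 of the 49 keratin genes (38.8%, 95% interval 25.2 to 53.8%), counting a peak that touched the gene span or the 5 kb on either side. The same rule called 55.6% of all protein-coding genes. It called 61.9% of the protein-coding genes of chromosome 11 and 66.1% of those of chromosome 15. Keratin genes were short, with a median span of 7422 bp against 17219.5 bp over all protein-coding genes. Among protein-coding genes with a span in the range of the keratins, 2812 to 50624 bp, the share called was again 55.6%. The upper quartile of the keratin spans was 9769 bp, so this wide range did not match lengths. The part played by length was not tested. By position, 9 of 25 members on chromosome 11 (36.0%) and 10 of 24 on chromosome 15 (41.7%) had a peak.

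The gut-epithelial keratins had a peak at 4 of 5 genes, and the skin and hair keratins at 15 of 44 (34.1%, 20.5 to 49.9%). With 5 genes, the interval of the first share ran from 28.4 to 99.5% and overlapped that of the second. Genes of a cluster share their surroundings and are not replicates, so the difference between these shares was not tested. The gut keratins with a peak were Krt7, Krt8 and Krt18 on chromosome 15 and Krt19 on chromosome 11. Krt20 had none.

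Peaks at several members lay at the start of the gene, at a share near that over all protein-coding genes given below. The 250 bases before the start are shown for 4 gut keratins, to set the starts with a peak (Krt7, Krt18) beside one with a peak just downstream (Krt8) and one with none (Krt20), and for Krt26 and Krt28, hair follicle keratins whose starts also lay under a peak. Sequences are from RefSeq (GRCm38.p6), 5′ to 3′ toward the gene, and capitals mark the bases under an H3K9me3 peak.
Krt7 (chr15:101412153-101412402, plus strand): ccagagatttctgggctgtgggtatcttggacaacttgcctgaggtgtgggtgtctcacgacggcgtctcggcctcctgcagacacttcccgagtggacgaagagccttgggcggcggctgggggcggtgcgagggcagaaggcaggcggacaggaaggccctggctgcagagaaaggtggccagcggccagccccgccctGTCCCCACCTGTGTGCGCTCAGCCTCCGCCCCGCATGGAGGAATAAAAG
Krt18 (chr15:102027966-102028215, plus strand): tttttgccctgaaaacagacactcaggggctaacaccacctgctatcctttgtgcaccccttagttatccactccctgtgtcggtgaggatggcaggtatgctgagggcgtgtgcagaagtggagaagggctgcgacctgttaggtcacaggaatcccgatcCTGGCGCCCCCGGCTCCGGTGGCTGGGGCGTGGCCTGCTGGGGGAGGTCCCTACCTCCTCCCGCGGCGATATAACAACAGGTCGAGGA
Krt8 (chr15:102004343-102004592, minus strand): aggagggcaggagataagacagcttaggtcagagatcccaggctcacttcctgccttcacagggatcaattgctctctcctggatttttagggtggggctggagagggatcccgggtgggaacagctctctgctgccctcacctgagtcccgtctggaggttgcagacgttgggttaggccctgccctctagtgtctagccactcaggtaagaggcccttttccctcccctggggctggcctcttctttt
Krt20 (chr11:99438154-99438403, minus strand): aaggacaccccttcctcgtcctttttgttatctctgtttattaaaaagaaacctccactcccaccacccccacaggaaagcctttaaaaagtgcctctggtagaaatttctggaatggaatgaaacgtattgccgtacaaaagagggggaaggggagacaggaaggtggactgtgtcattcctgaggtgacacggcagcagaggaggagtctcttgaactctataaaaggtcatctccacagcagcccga
Krt26 (chr11:99337966-99338215, minus strand): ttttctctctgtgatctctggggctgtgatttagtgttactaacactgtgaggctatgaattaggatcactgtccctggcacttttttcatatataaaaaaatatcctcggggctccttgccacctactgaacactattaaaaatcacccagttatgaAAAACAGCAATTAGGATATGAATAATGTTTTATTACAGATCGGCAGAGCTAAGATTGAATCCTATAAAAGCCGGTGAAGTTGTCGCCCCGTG
Krt28 (chr11:99374904-99375153, minus strand): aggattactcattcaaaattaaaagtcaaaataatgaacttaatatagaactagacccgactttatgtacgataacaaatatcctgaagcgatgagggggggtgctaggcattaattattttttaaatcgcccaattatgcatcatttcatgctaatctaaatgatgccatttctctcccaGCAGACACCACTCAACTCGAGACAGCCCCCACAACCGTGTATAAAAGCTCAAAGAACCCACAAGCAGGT

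The RefSeq promoter table gave a start site for 35 of the 49 keratins, among them the gut keratins Krt7, Krt8, Krt18 and Krt20. A peak lay over the start site in 6 of the 35, namely Krt7, Krt10, Krt18, Krt26, Krt28 and Krt79. Over all protein-coding genes of that table, 13.9% of 17491 had a peak over the start site. Within 2 kb of the start site a peak was found for 10 of the 35 keratins, against 28.9% of all protein-coding genes. Both keratin counts were thus near the shares over all protein-coding genes. Of the 4 gut keratins with a start site, 2 had a peak over it and 3 had one within 2 kb. Of the 31 skin and hair keratins with a start site, 4 had a peak over it and 7 had one within 2 kb.

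**Figure D1:**
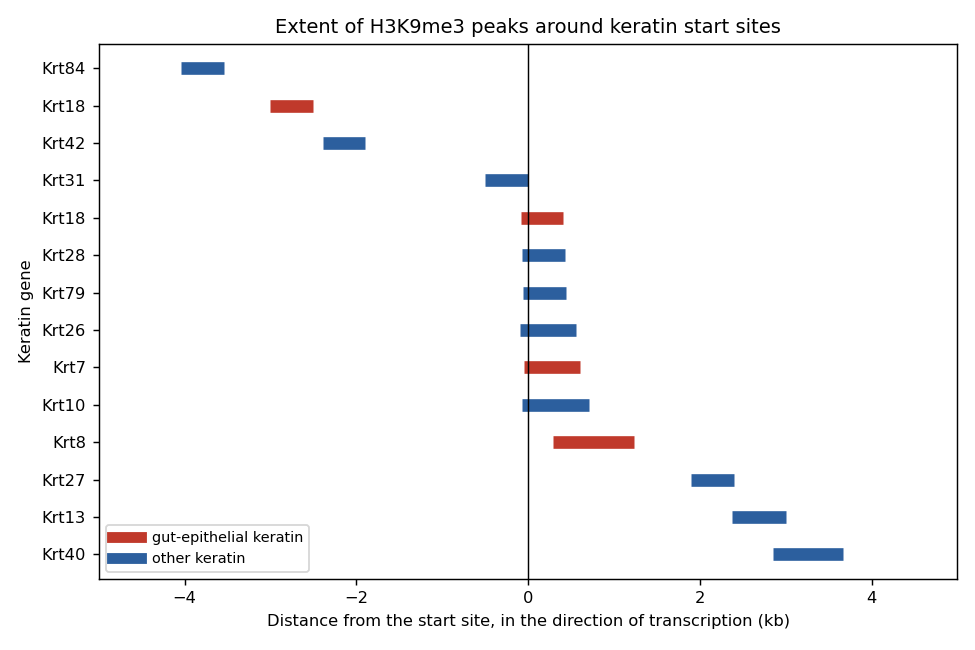
Extent of each H3K9me3 peak around the start site of keratin genes with a known start, in kb along the direction of transcription, with gut-epithelial keratins in red and other keratins in blue; bars crossing 0 lie over the start. Peaks of Krt7, Krt10, Krt18, Krt26, Krt28 and Krt79 cross the start site and that of Krt8 begins 285 bp after it; the peaks of Krt78 and Krt82 lie more than 5 kb from their start sites and are not drawn.

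Krt8, the type II partner of the simple epithelial pair, carried the tallest peak of all members. The gene spans 101996711 to 102004342 on chromosome 15, and the peak (102003112 to 102004057, 945 bp wide) lay wholly inside it, beginning 285 bp after the start site. It held 28 ChIP tags (95% interval 18.6 to 40.5) beside 4 control tags. The authors' fold over control was 4.79, the lowest of any keratin peak and close to the lowest in the list, 4. By normalized tag count, at 29.3, it stood above 76.0% of all peaks. Its interval lay above the median peak of the list, 16.5 tags, whereas the interval of every other keratin peak included that median.

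Krt18, the type I partner of Krt8, had 2 peaks. The first lay over the start of the gene (102028128 to 102028628), covered 88 of the 250 bases before the start site, and held 11 tags (5.49 to 19.7) beside 1 control tag. The second lay 2506 bp upstream of the gene (102025210 to 102025710) and held 9 tags (4.12 to 17.1), the lowest count in the list. Krt18 was the member with the most peaks, and both of its peaks were of the list's minimal width, 500 bp.

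Krt7, a type II keratin of ducts and other simple epithelia, had 1 peak over its start site (101412354 to 101413006 on chromosome 15). It held 15 tags (8.40 to 24.7) beside 1 control tag, with a fold of 10.26. Krt19, a small type I keratin found in crypts and ducts, had 1 peak inside the gene on chromosome 11 (100141085 to 100141585, in a span of 100140810 to 100145926). That peak held 10 tags (4.80 to 18.4), with a fold of 13.68 over a control at its lowest value, 0.5 tag. The tags of Krt7, Krt18 and Krt19 thus lay within each other's intervals. Krt20, a type I keratin of mature enterocytes and goblet cells (99428385 to 99438153 on chromosome 11), lay 39.0 kb from the nearest peak, which was the peak of Krt10.

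**Figure D2:**
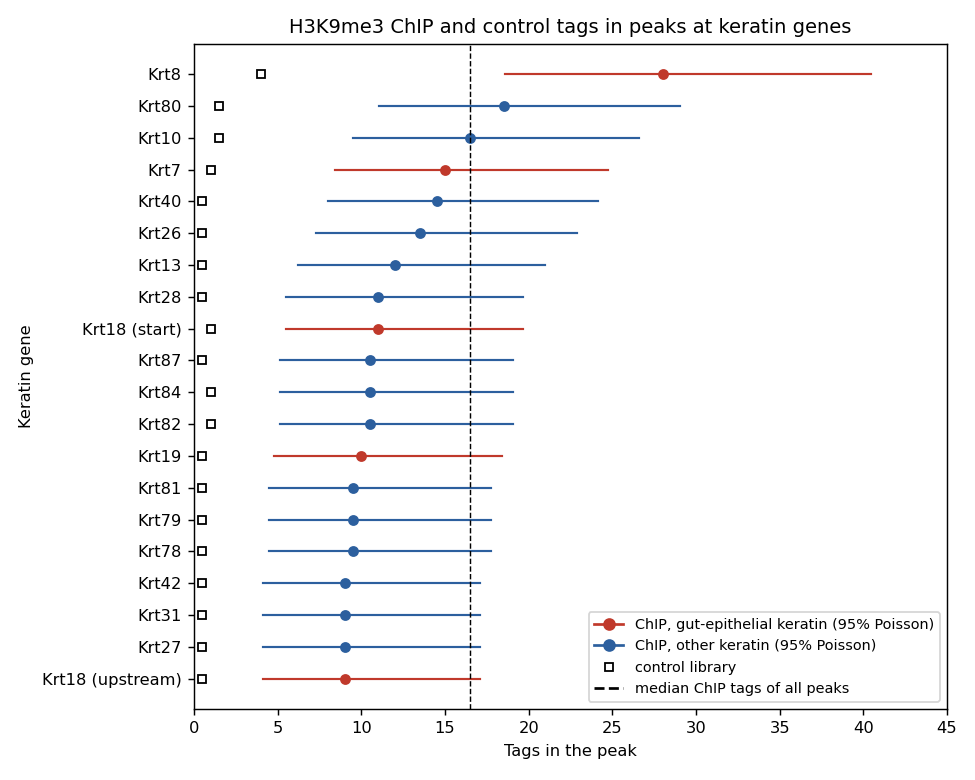
Filled points are ChIP tags in each peak at a keratin gene, with Poisson 95% intervals (gut-epithelial keratins red, others blue). Open squares are tags of the control library in the same peak. The dashed line is the median of all peaks, 16.5 tags. Krt8 is the only point whose interval lies above that line, and the peak shared by Krt82 and Krt84 is drawn once for each gene.

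The 19 marked keratins rested on 19 distinct peaks, since Krt18 had 2 and Krt82 and Krt84 shared 1. No peak of a keratin counted for a protein-coding gene outside the group. Of these peaks, 15 touched a keratin span, and the others lay beside one. They were smaller than most of the list. Their median was 10.5 tags (range 9 to 28), against 16.5 over the list, and 11 of 19 (57.9%) were exactly 500 bp wide, against 31.9% of all peaks. In 13 of 19 (68.4%) the control stood at its lowest value, against 43.0% of all peaks, so those folds depend on that value. Only the peaks of Krt8, Krt80 and Krt10 reached the median normalized tag count of the list, 17.3. No keratin had a strong peak, meaning one in the top 10% of the list at 50.8 normalized tags or more, and 6.61% of protein-coding genes had one. A peak with a score above the median of the list was found at 5 keratins (10.2%), against 35.7% of protein-coding genes, and a peak with control tags above their lowest value at 7 (14.3%), against 41.2%. Of the keratins, 15 had a peak touching the gene span alone, against 46.6% of protein-coding genes. The tallest peak per gene had a median of 11 normalized tags over the marked keratins and 21.0 over all marked protein-coding genes. Peaks at skin and hair keratins reached 9.43 to 19.4 normalized tags at their tallest, and the 4 marked gut keratins 10.5 to 29.3, so the groups overlapped.

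Among the keratins grouped here under differentiating skin and mucosa, a broad list that also holds Krt12 and Krt23, 5 of 14 had a peak (35.7%). Krt80, a type II keratin of several epithelia, had the second tallest peak among all members, with 18.5 tags (11.1 to 29.1) and a fold of 8.44. The peak (101369678 to 101370561 on chromosome 15) lay across one end of the gene. Krt10, the type I keratin of suprabasal epidermis, had 16.5 tags (9.52 to 26.6) beside 1.5 control tags, over its RefSeq start site (99388649 to 99389435 on chromosome 11). Krt1, the type II partner of Krt10, had no peak and lay 13.0 kb from the nearest one. Krt13, a type I keratin of the oral and oesophageal lining, had a peak of 12 tags (6.20 to 21.0) inside the gene, and Krt4, its type II partner, had none. Krt79 had a peak of 9.5 tags over its start. The peak of Krt78, also of 9.5 tags, lay inside the long RefSeq span of 50624 bp but 21405 bp upstream of the start site in the promoter table. Krt2, Krt9, Krt12, Krt23, Krt24, Krt76 and Krt77 had no peak. Both classical pairs named here, Krt1 with Krt10 and Krt4 with Krt13, therefore had a peak at the type I gene alone. Krt1 and Krt4 lay in 1 stretch of 107.5 kb without a peak, so they are not separate observations. Over all members, the share with a peak was 36.0% on chromosome 11 and 41.7% on chromosome 15. Krt8 and Krt18 each had one, as had Krt19, but Krt20, which also pairs with Krt8, had none. Krt5 and Krt14, another classical pair, had no peak at either gene.

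The keratins of basal and wounded stratified epithelium had no peak at any of 5 genes (an interval of 0 to 52.2%). These were Krt5 and Krt14, the pair of the basal epidermal layer, Krt15, which marks hair follicle stem cells, and the wound-induced Krt16 and Krt17. Krt14, Krt16 and Krt17 lay in 1 stretch of 110.3 kb without a peak, so they are not separate observations. Krt15 lay just outside the window, 5136 bp from the peak of Krt19, and Krt88 lay 5028 bp from the peak of Krt81. Just inside the window were Krt84 and Krt82, at 3540 and 4356 bp from the 10.5-tag peak between them. A slightly wider limit would thus raise the count, but a wider window also raises the share over all protein-coding genes. With 10 kb on either side, 23 keratins had a peak (46.9%), against 62.8% of all protein-coding genes.

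Keratins of the hair follicle and hair had peaks scattered along both clusters. Of 8 inner root sheath and companion layer keratins, which shape the growing hair, Krt26, Krt27 and Krt28 on chromosome 11 had a peak. These are neighbouring type I genes. The peaks at Krt26 (13.5 tags, 7.29 to 22.9) and Krt28 (11 tags, 5.49 to 19.7) lay over the start sites, and that at Krt27 (9 tags) lay 1896 bp inside the gene. Their type II counterparts Krt71, Krt72, Krt73 and Krt75 and the type I gene Krt25 had none. Of 15 hair and nail keratins, 7 had a peak (46.7%): Krt31, Krt40, Krt42, Krt81, Krt82, Krt84 and Krt87. Krt40 had the tallest of these, with 14.5 tags (8.02 to 24.1) and the highest fold of any keratin peak, 19.84, which rested on 0.5 control tag. The peak at Krt31 (9 tags) began 3 bp upstream of the start site and ran away from the gene. Krt87 had 10.5 tags (5.14 to 19.0) across one end of the gene, and the rest held 9 to 10.5. Every interval in this group overlapped the others, so no order among them could be read. Krt32, Krt34, Krt35, Krt36, Krt39, Krt83, Krt86 and Krt90 had no peak, nor had Krt88 and Krt222.

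**Figure D3:**
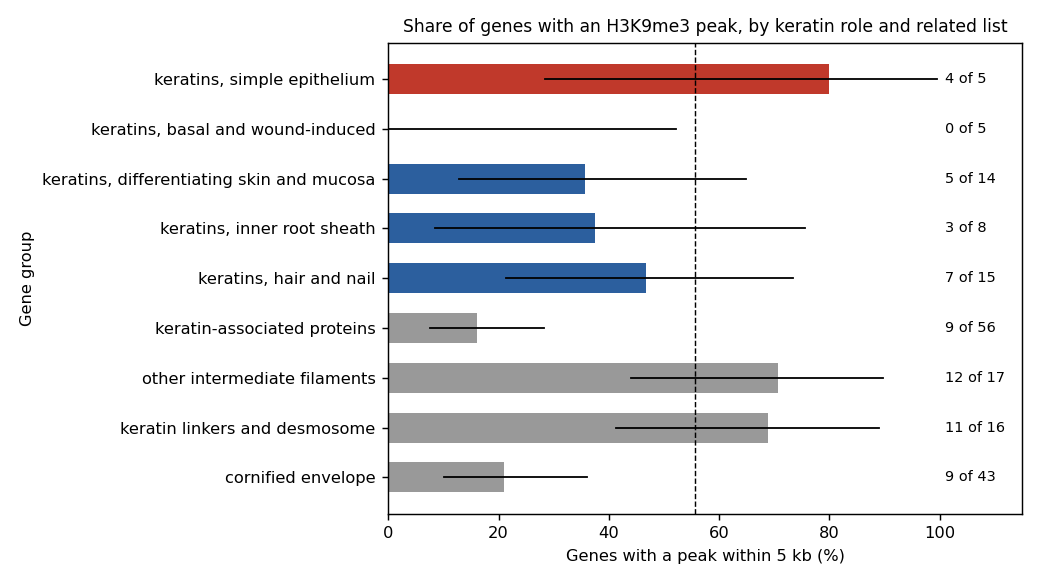
Share of genes with an H3K9me3 peak within 5 kb, by keratin role and for 4 related gene lists; black lines are exact 95% intervals, counts stand at the right, and the dashed line is the share over all protein-coding genes, 55.6%. Simple epithelial keratins stand at 4 of 5 and basal keratins at 0 of 5, with intervals that overlap.

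Along the clusters, peaks were unevenly spaced. Between the first and the last keratin gene, chromosome 15 held 12 peaks in 683.7 kb, or 17.6 per Mb (95% interval 9.07 to 30.7), close to the chromosome as a whole at 15.9 per Mb. The chromosome 11 cluster held 27 peaks in 1037.2 kb, or 26.0 per Mb (17.2 to 37.9), against 19.9 for the chromosome. Most of the latter peaks were not at keratin genes. The cluster is interrupted by a stretch of genes for keratin-associated proteins, the matrix proteins that surround keratin in hair, and that stretch alone held 17 peaks in 443.9 kb (38.3 per Mb, 22.3 to 61.3). Without it, the chromosome 11 cluster held 10 peaks, or 16.9 per Mb (8.08 to 31.0). The keratin-bearing parts of both clusters thus had similar densities. On either side of each cluster, windows of 500 kb chosen after the first results held 24 to 26 peaks, or 48.0 to 52.0 per Mb, and the lowest bound of their intervals was 30.8. The interval of the chromosome 15 cluster lay just below that bound, and that of the keratin-bearing part of chromosome 11 reached it. These intervals take peaks as independent, which unevenly spaced peaks need not be. The difference in density between clusters and flanks was not tested.

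The longest stretch without a peak in either cluster ran over 175.3 kb on chromosome 15 (101656601 to 101831896). It held the members Krt5, Krt71, Krt72, Krt73 and Krt2, and also Krt6a, Krt6b and Krt74, which are outside the naming rule. Of all gaps between peaks on chromosomes, 9.49% were as long. Krt20 lay in the longest such stretch of the chromosome 11 cluster, 150.1 kb (99389436 to 99539548) with Krt12, Krt23 and Krt39. Krt222, Krt24 and Krt25 shared one of 134.9 kb, and Krt1, Krt77, Krt76 and Krt4 one of 107.5 kb on chromosome 15. These unmarked keratins lay in runs of neighbours, whereas Krt15 and Krt88 each lay between marked keratins. Krt8 and Krt18, by contrast, lay at the crowded end of their cluster, where their 3 peaks fell within 25.5 kb.

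**Figure D4:**
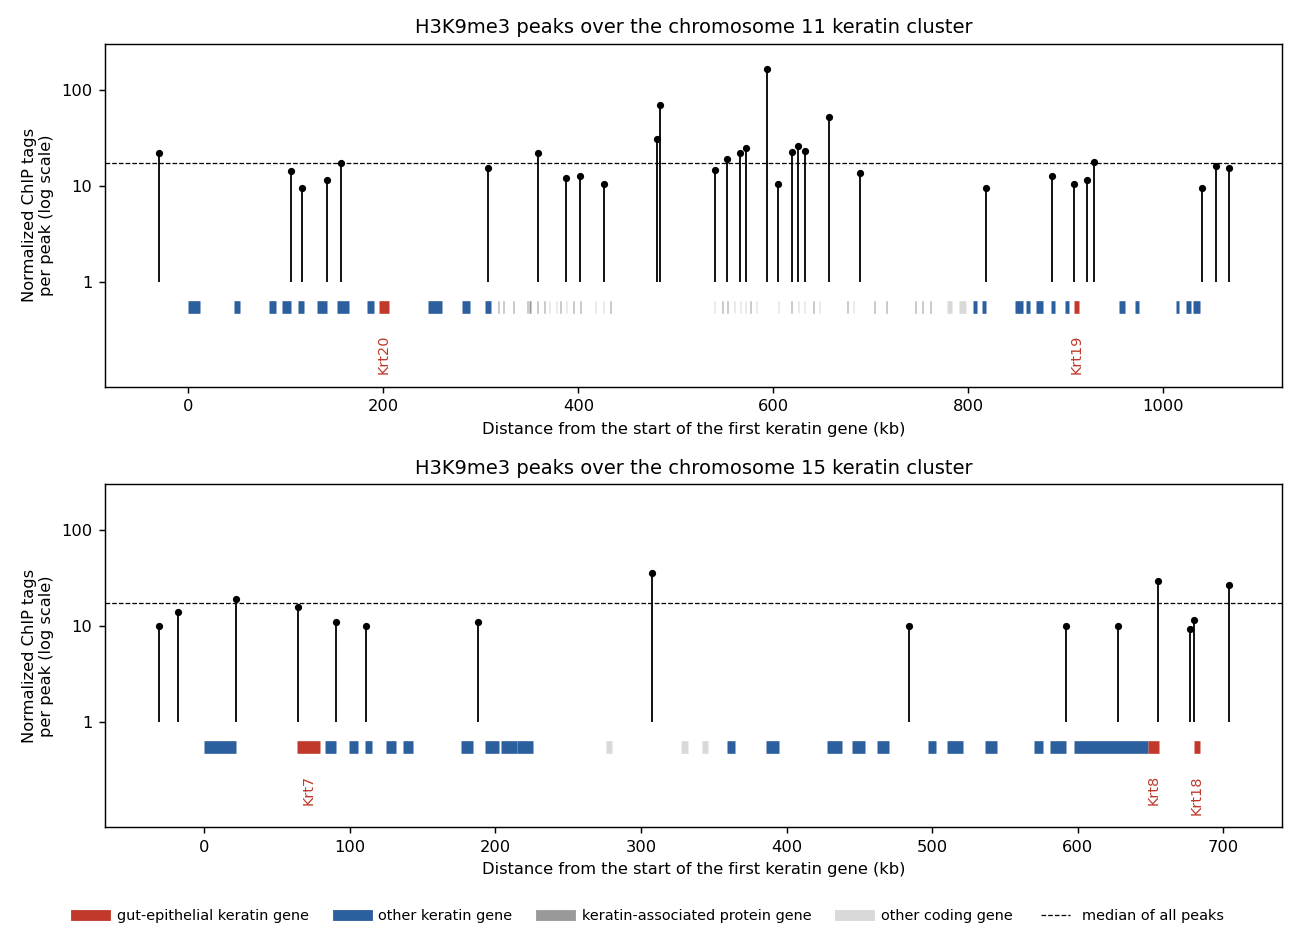
Normalized ChIP tags of every H3K9me3 peak (stems, log scale) along the chromosome 11 and chromosome 15 keratin clusters, by distance in kb from the start of the first keratin gene, with gene spans below in colour by kind; the dashed line is the median of all peaks, 17.3. The tall peaks of chromosome 11 stand in the stretch of keratin-associated protein genes, between genes, and peaks over keratin genes mostly stand below the line.

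Keratin promoters held few CG dinucleotides, with the most at Krt7 and Krt18. The 250 bases before the start held a median of 4 CG dinucleotides in the 35 keratins, against 10 in all protein-coding promoters. Krt7 held 16 and Krt18 held 12, and both starts lay under a peak. Krt8 held 3 and Krt20 held 5, within the range of 1 to 9 for the skin and hair keratins. The start sites of Krt10, Krt79, Krt26 and Krt28 also lay under a peak, with 2, 3, 5 and 6. At Krt31 a peak covered 248 of the 250 bases but not the start site, and the promoter held 1. Keratins with a peak within 5 kb had a median of 3 and those without a median of 4. Over all protein-coding genes the split was made by a peak over the start site instead. Promoters with such a peak had a median of 14 CG dinucleotides and the others 8. The groupings differ, so the order in keratins cannot be set against the order over all genes. The motif TATAAA on either strand was found in 16 of 35 keratin promoters (45.7%) and in 12.4% of all protein-coding promoters, for example in those of Krt20, Krt26 and Krt28 shown above. It was present in 7 of 15 keratins with a peak and 9 of 20 without. CACCC on either strand was found in 77.1% of keratin promoters and 53.3% of all.

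Genes whose products work with keratins were described by the same count. Of 16 genes listed as keratin linkers and desmosome genes, 11 had a peak (68.8%). That list holds genes for desmosomes and for the plakins that tie keratin filaments to them, and also Fam83h and Krtcap3. Plec led it with 12 peaks, followed by Evpl with 6, and Dsp and Jup with 5 each. Of 17 genes listed as other intermediate filaments, a list that also holds the plakin gene Eppk1, 12 had one (70.6%), led by the lamin genes Lmnb2 with 9 and Lmna with 5. Of 43 cornified envelope genes, which harden the outer epidermis, 9 had a peak (20.9%). Of 56 keratin-associated protein genes, taken by a Krtap symbol, 9 had one (16.1%). The intervals of the first pair of lists (41.3 to 89.0% and 44.0 to 89.7%) included the 55.6% of all protein-coding genes, and those of the second pair (10.0 to 36.0% and 7.62 to 28.3%) lay below it. Spans differ between these lists, and keratin-associated protein genes are short and clustered, so neighbouring genes can count the same peak. The last share also depends on the choice by symbol. In the chromosome 11 stretch, 6 of 23 genes with a Krtap symbol had a peak, as had 9 of 15 coding genes with other symbols.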

How the data were processed

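Bowtie2 2.2.8, HOMER 4.10.1 and the builds GRCm38 and mm10 are named in the submitters' processing notes. Per the file headers, the peak list comes from HOMER findPeaks, run on 1 ChIP library against the control. The caller's options and the treatment of reads that map to several places were not given in the sources used here, so reads from near-identical keratin copies may be shared or lost. Normalized tag counts, as deposited, are a coverage signal scaled to a fixed total. The authors' score is the caller's value per peak, used to rank peaks within the list. The deposited fold is the ratio of ChIP to control tags, scaled by the authors. The deposited p-value (highest 8.32e-05) was not used further.

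Normalized counts moved in steps of 0.524 (0.5 tag). Of the 30961 values under 30, 100% were whole steps within a tolerance of 0.1, and tags were recovered from them. The control held 0.684 of the tags of the ChIP library. Total depth was not used here, and 147 peaks on scaffolds were left out.

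Gene spans came from a RefSeq table of GRCm38.p6 (49591 genes on chromosomes) and start sites from a RefSeq promoter table. Exons were not used here. The planned protein comparison was not made. Counts used peaks touching the span plus 5 kb. The overlap step was tested on simulated data. Members, roles and lists were chosen with earlier results of these data known. Named genes were the 5 gut-epithelial keratins, every keratin with a peak (the 10 tallest in full), the others by name, and up to 4 members of each related list. Alternatives were scores above the median, a fold of at least 8, control tags above their lowest value, strong peaks, windows of 0, 2 and 10 kb, peak centres, the nearest gene within 5 kb, peaks merged within 5 kb, clusters widened by 50 kb, and, added after the data were seen, the cluster without keratin-associated protein genes. Python 3.11.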

Additional observations from a re-analysis of the deposited data

How the results depend on the processing

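The counts of marked genes depended on how low a peak was accepted. With scores above the median of the list, 5 of 49 keratins (10.2%, against 35.7% of all protein-coding genes) had a peak (2 gut-epithelial, 3 skin and hair; 2 on chromosome 11, 3 on chromosome 15). With control tags above their lowest value, 7 (14.3%, against 41.2%) had one (3 gut-epithelial, 4 skin and hair; 1 on chromosome 11, 6 on chromosome 15). With strong peaks, every one of these counts was 0. Cluster densities on chromosome 11 were then 13.5, 11.6 and 2.89 peaks per Mb, and 16.9 without the keratin-associated protein stretch. On chromosome 15 they were 5.85, 8.78 and 0 peaks per Mb. The other settings gave 15 to 23 marked keratins (30.6 to 46.9%). The same settings called 46.6 to 62.8% of all protein-coding genes, and the keratin share was the lower under each. Under the alternatives, 38 values stayed within 1.5 times the reported count or within its interval. No paired analysis was possible because each group held 1 library. Most keratin peaks rested on 9 to 15 tags, near the lowest count the list contains, so a gene without a peak may carry the mark at a level that was not detectable at this depth.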

Other observations

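The stretch of chromosome 11 between Krt40 and Krt33a, which holds the genes of keratin-associated proteins, had taller peaks than the keratin genes on either side. Its 17 peaks included 3 strong ones, with 66, 156 and 50 tags, whereas the keratins of the cluster had none. The tallest (99824459 to 99827091) held 156 tags (exact Poisson 95% interval 132 to 182) beside 16.5 control tags, at a fold of 6.47. None of the 3 touched a protein-coding gene. Of the 17 peaks, 12 touched the span of a protein-coding gene, and such spans made up 7.83% of the stretch. A peak can touch a span with any of its bases, so these figures are unlike measures and their difference was not tested. Those 12 included Krtap1-3 (21 tags, 13.0 to 32.1), Krtap4-2 (12 tags), Krtap4-9 (18 tags) and Krtap4-16 (21.5 tags, 13.4 to 32.7), and 8 genes with other symbols, of which Gm11568 had the most, at 25 tags (16.2 to 36.9) beside 2.5 control tags. They were picked once their values were known. The stretch holds 38 protein-coding genes, 23 of them with a Krtap symbol, and 6 of those 23 had a peak within 5 kb, as had 9 of the other 15, against 55.6% of all protein-coding genes. The part that reads shared between copies play in these values was not tested.

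Keratin genes outside the naming rule had no peak within 5 kb. These were Krt6a and Krt6b, which are induced in wounded epidermis, the hair keratin genes Krt33a and Krt33b, and the pseudogene Krt74.

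Tall peaks were found near some genes of the related lists. The highest normalized tag counts were 1113.6 near Eppk1 and 653.2 near Plec on chromosome 15, and 959.6 near Flg and 445.8 near Flg2 on chromosome 3, against 29.3 for the tallest peak at a keratin.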
